A study of Mus musculus with 4 samples.

Results

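Early B cell regulators and recombinases are a set of 10 listed genes of pro-B and pre-B cell identity, receipt of IL-7 and antigen receptor recombination, matched by symbol to the gene table of the array. The measured genes were 9 of the 10, out of 30702 named genes in all, each with 1 transcript cluster, the unit in which the array reports a gene. Rag1 had no cluster of its own, because its cluster also carries the neighbouring gene Iftap, so it has no value here. All 9 measured genes passed the filter on low values, which asked for a mean over the arrays of at least 5.235 on the log2 scale and kept 17208 genes. Marrow of mice was profiled on 4 arrays, 1 for each of control mice, mice given cisplatin (a DNA-crosslinking anticancer drug that is toxic to marrow), mice treated with astragalus membranaceus (a medicinal root) and mice treated with electro-acupuncture. Marrow was spun from the tibias after 2 weeks of treatment, and by the design text 6 marrow samples were mixed before extraction, so an array of mixed marrow shows no spread between mice. The sources used here give neither strain, age, sex nor dose, nor do they state if cisplatin was also given to the mice treated with astragalus or electro-acupuncture. With 1 array per group there is no replicate check on any difference and no test was run; the number of arrays is what limits precision.

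B lymphocytes arise in the marrow from progenitors that receive IL-7 from stromal cells. The transcription factors EBF1 and PAX5 switch on the B cell programme and hold it, while the RAG1 and RAG2 proteins cut the immunoglobulin loci so that V, D and J segments can be joined. Terminal transferase, encoded by Dntt, adds untemplated bases at those joints. Pro-B cells use these recombination proteins on the heavy chain locus and pre-B cells use RAG1 and RAG2 on the light chain loci. A level measured in bulk marrow cannot tell fewer cells of a type from less RNA per cell.

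The windows just before the transcription starts of members that differed together between arrays (Il7r, Ebf1, Sox4 and Bach2), and of Dntt, which had another profile, are shown first so that their sequence can be set beside the levels. They are the 250 bases before a RefSeq start on the GRCm38.p6 build, read 5′ to 3′ on the strand of the gene, and capitals mark matches to the motifs named after them.
Il7r (chr15:9529877-9530126, minus strand): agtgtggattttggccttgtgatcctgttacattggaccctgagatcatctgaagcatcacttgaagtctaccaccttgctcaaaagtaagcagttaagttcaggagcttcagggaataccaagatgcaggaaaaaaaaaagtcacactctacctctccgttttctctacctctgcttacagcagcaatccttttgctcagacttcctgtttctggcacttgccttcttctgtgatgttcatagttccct
Ebf1 (chr11:44617850-44618099, plus strand): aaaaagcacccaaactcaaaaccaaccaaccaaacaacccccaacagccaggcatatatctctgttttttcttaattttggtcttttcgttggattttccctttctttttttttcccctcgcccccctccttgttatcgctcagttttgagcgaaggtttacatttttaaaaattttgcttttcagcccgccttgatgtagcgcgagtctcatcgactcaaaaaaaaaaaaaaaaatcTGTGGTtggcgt
Sox4 (chr13:28953700-28953949, minus strand): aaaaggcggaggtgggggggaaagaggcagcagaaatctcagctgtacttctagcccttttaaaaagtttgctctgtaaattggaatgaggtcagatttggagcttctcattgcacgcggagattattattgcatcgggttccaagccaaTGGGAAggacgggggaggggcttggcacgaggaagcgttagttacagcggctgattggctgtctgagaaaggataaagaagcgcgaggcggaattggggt
Bach2 (chr4:32417185-32417434, plus strand): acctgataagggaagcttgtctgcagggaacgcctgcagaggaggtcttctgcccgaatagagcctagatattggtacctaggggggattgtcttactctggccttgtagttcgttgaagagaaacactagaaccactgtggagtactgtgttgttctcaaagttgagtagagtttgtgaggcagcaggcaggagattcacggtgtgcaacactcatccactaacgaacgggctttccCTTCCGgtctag
Dntt (chr19:41029025-41029274, plus strand): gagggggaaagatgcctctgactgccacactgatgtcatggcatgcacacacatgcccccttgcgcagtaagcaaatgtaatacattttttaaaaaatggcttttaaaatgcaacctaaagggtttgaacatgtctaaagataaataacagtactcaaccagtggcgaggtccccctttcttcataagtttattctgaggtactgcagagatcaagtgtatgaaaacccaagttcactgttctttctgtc
The RefSeq promoter table held 13 such windows for 9 of the 10 listed genes, all but Cecr2, and the Ebf1 window shown belongs to the more upstream of its listed starts. A set of 7 short motifs was searched on both strands: TGTGGT for RUNX factors, CAGGTG for E proteins, GTAAACA for FOXO, AACAAAG for SOX, CTTTGAT for TCF/LEF, TGGGAA for Ikaros and CGGAAG for ETS factors. None of the 7 was found in the Il7r or Dntt window, which says only that these letters are not in it. TGTGGT lay 12 to 7 bases before the Ebf1 start, and 14.0% of 32851 mouse windows of this length hold it. TGGGAA lay 100 to 95 bases before the Sox4 start (21.6% of all windows), and CGGAAG on the opposite strand 12 to 7 bases before the Bach2 start (13.6% of all windows). No motif was shared by any of the 5 windows shown. The window of the other Ebf1 start held TGGGAA on the opposite strand, 207 to 202 bases before that start. With Sox4 and Rag1, 3 of the 13 member windows held this motif, close to its share of 21.6% of all windows.

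Of the receptor and the factors that set B cell identity, Il7r, Ebf1 and Pax5 were highest in the control array. Il7r, the alpha chain of the IL-7 receptor, had log2 levels of 10.81 in control, 8.76 after cisplatin, 9.47 after astragalus and 9.05 after electro-acupuncture. The control array stood 1.34 above the next on the log2 scale, and the 3 treated arrays lay within 0.71 of each other. Ebf1, which commits progenitors to the B lineage, was at 10.40 in control, 8.99 after cisplatin, 9.39 after astragalus and 9.19 after electro-acupuncture. Its 3 treated arrays spanned only 0.40, all at least 1.01 under the control. Pax5, which keeps B cells from taking other fates, was at 8.43 in control, 7.66 after cisplatin, 7.62 after astragalus and 7.36 after electro-acupuncture. For Pax5 the lowest array was electro-acupuncture and not cisplatin, and the cisplatin and astragalus levels differed by 0.04. In the RefSeq gene table Pax5 overlaps 3 non-coding genes, and Bach2, Cecr2 and Sox4 overlap 1 each; their part in these levels was not tested.

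The other nuclear regulators were highest in control too, apart from Lef1. Sox4, an HMG-box factor needed by early B cell progenitors, had levels of 9.54 in control, 8.07 after cisplatin, 8.56 after astragalus and 8.54 after electro-acupuncture. Astragalus and electro-acupuncture differed by 0.02 and lay between control and cisplatin. Bach2, a repressor that acts at the pre-B cell stage and in germinal centres, was at 8.63 in control, 7.17 after cisplatin, 7.58 after astragalus and 7.27 after electro-acupuncture. Cecr2, a bromodomain protein of a chromatin remodelling complex, was at 10.87 in control, 9.05 after cisplatin, 9.72 after astragalus and 9.30 after electro-acupuncture. Both genes were lowest in cisplatin, with electro-acupuncture next and astragalus above it. Lef1, an HMG-box factor at the end of the Wnt pathway that pro-B cells also express, stayed between 6.42 and 6.70 on all 4 arrays. It was at 6.46 in both control and cisplatin, with 6.42 after astragalus and 6.70 after electro-acupuncture.

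The recombination genes had their highest level in the electro-acupuncture array. Dntt was at 6.51 in control, 6.34 after cisplatin, 6.75 after astragalus and 7.43 after electro-acupuncture, a gap of 0.68 to the next array. Rag2, the partner that RAG1 needs to cut DNA, was at 5.66 in control, 5.13 after cisplatin, 5.53 after astragalus and 5.93 after electro-acupuncture. Rag2 lay close to the floor on every array and under it in cisplatin. Its locus also overlaps Iftap in the RefSeq gene table, and the share of its signal that comes from Iftap was not tested.

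**Figure D1:**
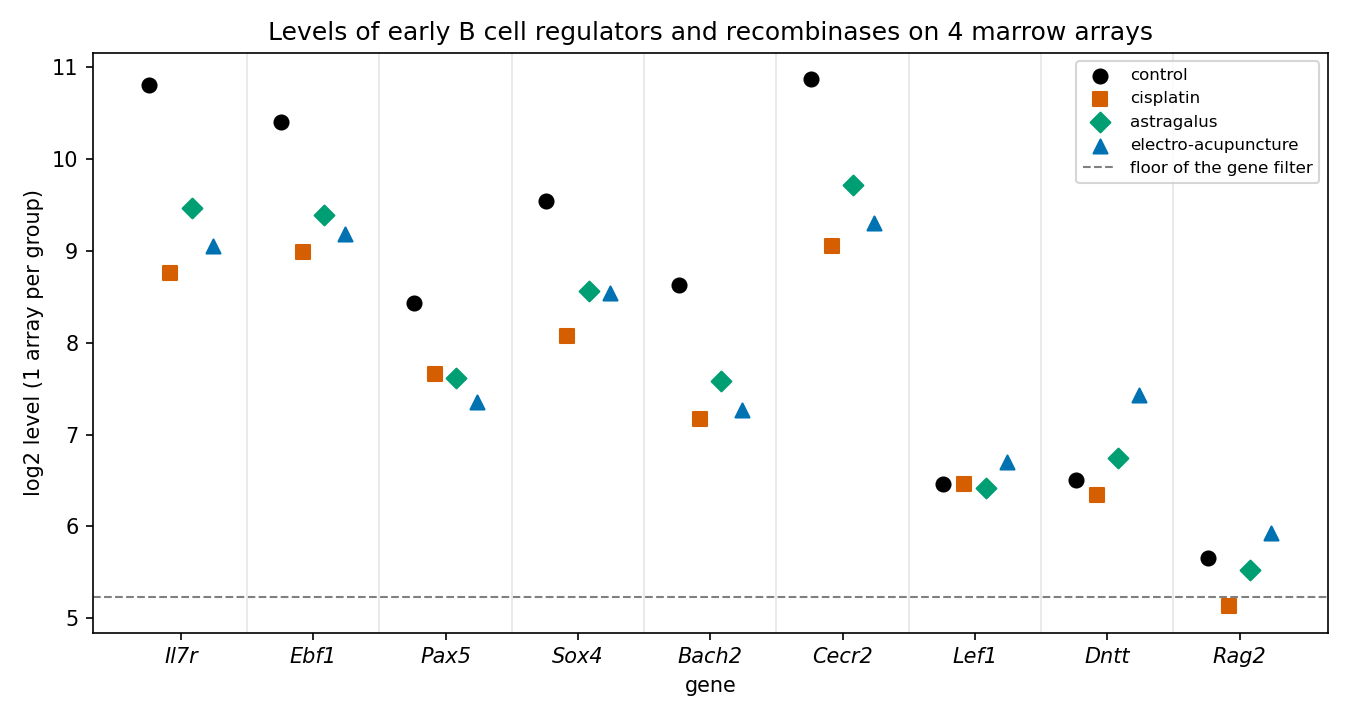
Log2 level (vertical axis) of the 9 measured genes (horizontal axis), with 1 point per array for control, cisplatin, astragalus and electro-acupuncture, and a dashed line at the floor of 5.235. The control point is highest for Il7r, Ebf1, Pax5, Sox4, Bach2 and Cecr2 and the electro-acupuncture point for Lef1, Dntt and Rag2; heights of different genes are not comparable, since each has its own probes.

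Cisplatin was set against control to ask which of these genes differ after the drug. In the cisplatin array Il7r was 4.14-fold lower, Cecr2 3.53-fold, Sox4 2.77-fold, Bach2 2.75-fold and Ebf1 2.66-fold lower. These 5 of 9 members were at least 2-fold lower, and none was at least 2-fold higher, where 0.965% of all genes tested were at least 2-fold lower and 2.01% higher. Pax5 was 1.71-fold lower, Rag2 1.44-fold and Dntt 1.13-fold, and Lef1 had a difference of 0.00 on the log2 scale. The median difference of the 9 members was -1.41, against 0.01 for all 17208 genes, whose middle 95% ran from -0.72 to 0.93. In rank, 15 genes including Il7r were as far down as Il7r or further, and 16 genes as far as Cecr2. The like counts were 36 for Sox4, 39 for Bach2, 44 for Ebf1 and 376 for Pax5. Dntt, at -0.17, had 25.4% of all genes at or under it and so lay well inside the common range. The members were chosen with such differences already known, so these ranks describe them and carry no test.

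The comparison of astragalus with control asks how marrow after the root differs from that of control mice. Il7r was 2.53-fold lower, Cecr2 2.22-fold, Bach2 2.07-fold and Ebf1 2.01-fold lower in the astragalus array. These 4 of 9 members were at least 2-fold lower, and 2.68% of all genes tested were. Sox4 was 1.97-fold lower, just short of that size, and past it at a log2 difference of -1.15 after quantile normalization and -1.23 with the lowess trend removed. Pax5 was 1.75-fold lower. Dntt was the only member above its control level, at a log2 difference of 0.24, while Rag2 was at -0.13 and Lef1 at -0.04. The members' median was -0.98 against 0.05 over all genes, whose middle 95% ran from -1.02 to 1.42. Il7r, Cecr2 and Bach2 lay outside that range, while Ebf1, Sox4 and Pax5 lay inside it. With the lowess trend removed, the log2 difference of Il7r went from -1.34 to -1.66 and of Cecr2 from -1.15 to -1.48. That of Bach2 went from -1.05 to -1.23 and that of Ebf1 from -1.01 to -1.31.

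The comparison of electro-acupuncture with control asks the same for that treatment. Il7r was 3.39-fold lower, Cecr2 2.97-fold, Bach2 2.57-fold, Ebf1 2.31-fold, Pax5 2.10-fold and Sox4 2.00-fold lower in the electro-acupuncture array. These 6 of 9 members were at least 2-fold lower, against 3.11% of all genes tested. Sox4 sat at the limit itself, and its log2 difference was -0.99 after quantile normalization. Dntt was 1.89-fold higher than control, with 865 genes (5.03% of all tested) as far up or further, and Rag2 and Lef1 were 1.21-fold and 1.18-fold higher. The members' median was -1.07 against 0.04 over all genes, with individual members from -1.76 to 0.92. Il7r, Cecr2, Bach2 and Ebf1 lay outside the middle 95% of all genes, which ran from -1.17 to 1.19, and Pax5, Sox4 and Dntt lay inside it. The 3 comparisons share the control array, so a high or low reading of a gene on that array enters all of them.

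**Figure D2:**
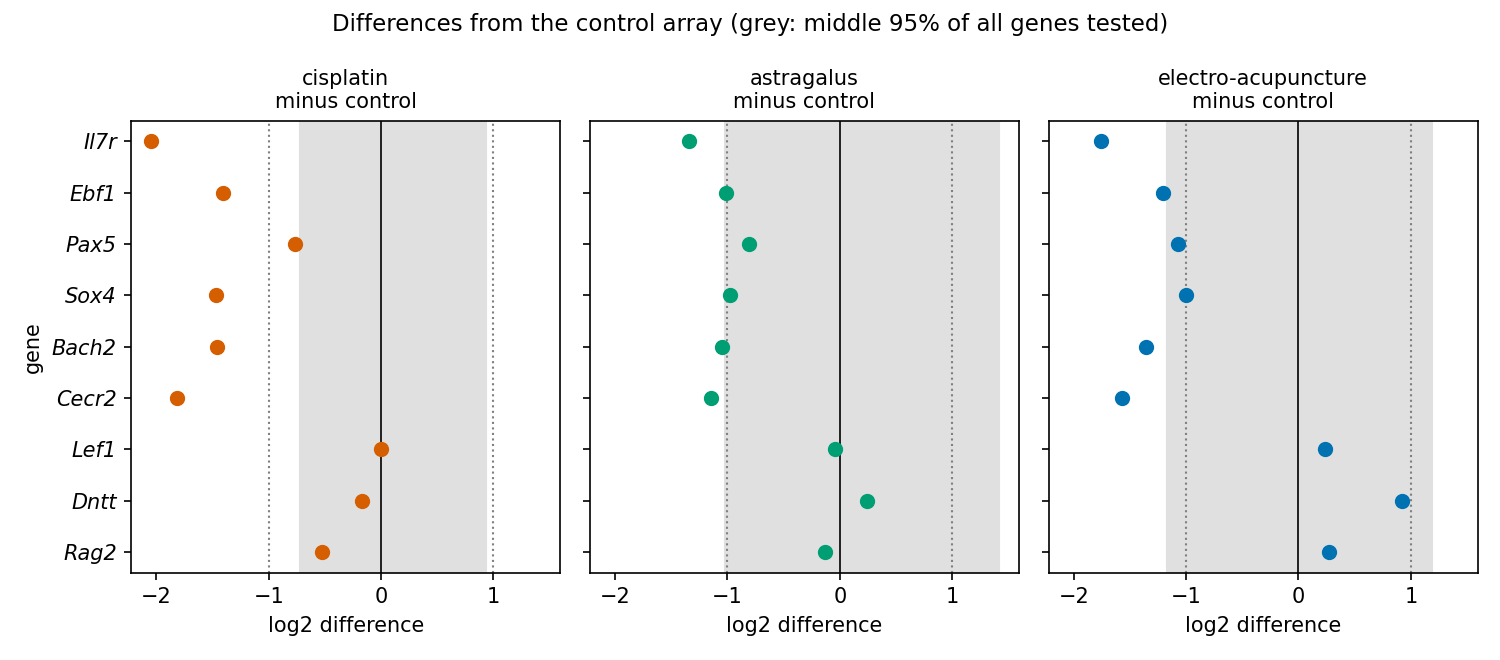
Log2 difference from the control array (horizontal axis) of each measured gene (vertical axis) for cisplatin, astragalus and electro-acupuncture, 1 array each; the grey band holds the middle 95% of all 17208 genes tested and dotted lines mark 2-fold. Il7r, Ebf1, Bach2 and Cecr2 lie beyond the dotted line in every panel, whereas Dntt lies at -0.17, 0.24 and 0.92.

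The comparisons with the cisplatin array ask whether these genes stood higher after astragalus or electro-acupuncture than after the drug. In astragalus 7 of 9 members were above their cisplatin level, as were 56.8% of all genes tested, and none reached 2-fold, a size that 3.92% of all genes tested reached in either direction. Il7r was 1.64-fold higher, Cecr2 1.59-fold and Sox4 1.40-fold. Bach2 and Dntt were each 1.33-fold higher, Ebf1 and Rag2 each 1.32-fold. Pax5 and Lef1 were each at -0.04 on the log2 scale. All 9 values lay inside the middle 95% of all genes, which ran from -0.86 to 0.94. Brighter genes were in general higher in the astragalus array, and with that trend removed by lowess the log2 difference of Il7r went from 0.71 to 0.44, of Cecr2 from 0.67 to 0.38 and of Ebf1 from 0.40 to 0.13.

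In electro-acupuncture Dntt stood out, 2.13-fold above its cisplatin level, as the 1 of 9 members at least 2-fold higher, where 1.32% of all genes tested were. Only 155 genes, Dntt among them, were as far up, or 0.901% of those tested. Rag2 was 1.74-fold higher, from a cisplatin value under the floor. Sox4 was 1.39-fold higher, Il7r 1.22-fold, Cecr2 1.19-fold, Lef1 1.18-fold, Ebf1 1.15-fold and Bach2 1.07-fold. Pax5 was 1.23-fold lower. The middle 95% of all genes ran from -1.02 to 0.82, so Dntt alone of the 9 lay outside it.

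Set directly against each other, the astragalus array was higher for Il7r and Cecr2, each 1.34-fold, Bach2 at 1.24-fold, Pax5 at 1.20-fold, Ebf1 at 1.15-fold and Sox4 at 1.01-fold. The electro-acupuncture array was higher for Dntt at 1.60-fold, Rag2 at 1.32-fold and Lef1 at 1.21-fold. None of the 9 reached 2-fold, and 1.53% of all genes tested did. The middle 95% of all genes, from -0.71 to 0.73 on the log2 scale, held all 9 members, Dntt at -0.68 being nearest to its edge. The direction for Sox4 and Ebf1 turned after quantile normalization, to -0.16 and -0.0025, and with the lowess trend removed, to -0.20 and -0.05. With that trend removed Il7r and Cecr2 kept their direction, but went from 0.42 to 0.17 and to 0.16. Dntt, higher in electro-acupuncture, went from -0.68 to -0.78.

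**Figure D3:**
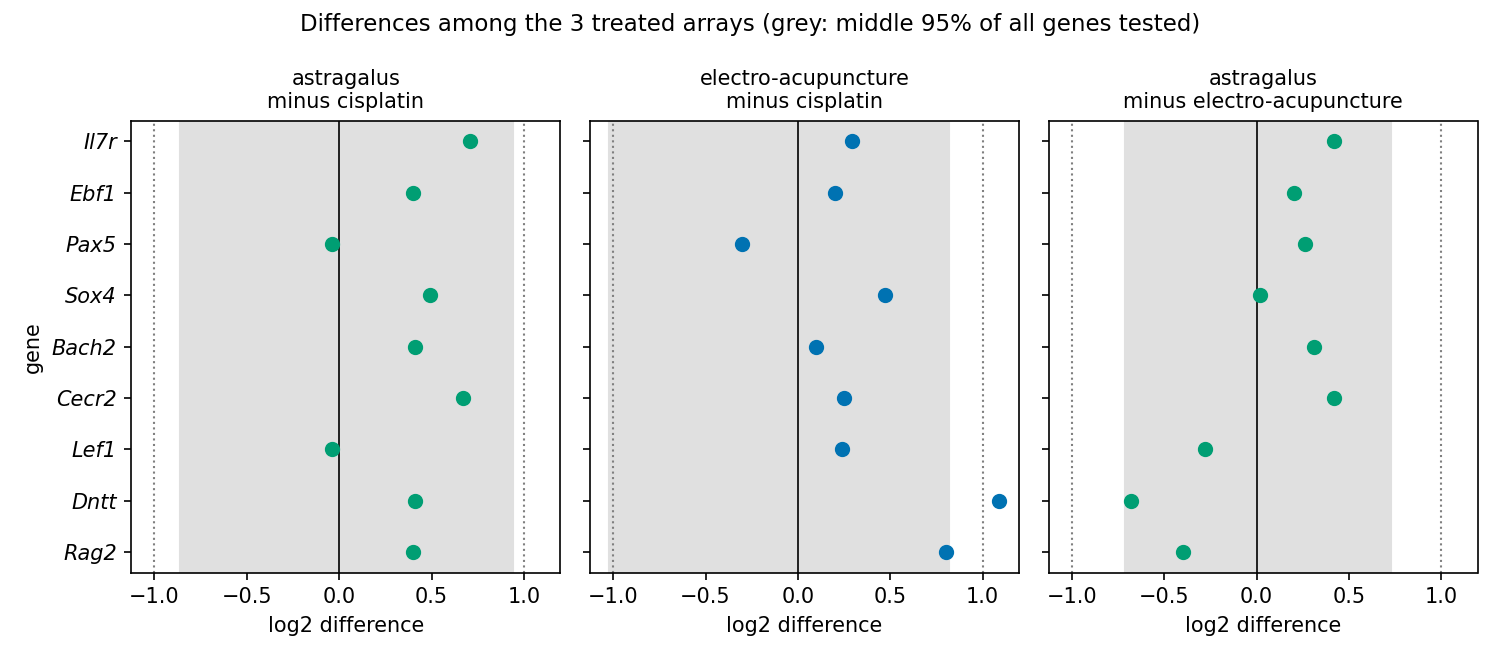
Log2 differences (horizontal axis) of each measured gene (vertical axis) for astragalus and electro-acupuncture against the cisplatin array and against each other, 1 array each, with the grey band and dotted lines as for the differences from control. Dntt in electro-acupuncture against cisplatin, at 1.09, is the single point beyond 2-fold.

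The members were grouped by the array on which each was highest or lowest. In their full order over the 4 arrays Pax5, Dntt, Rag2 and Lef1 each differed from all other members. The control array was highest for 6 of 9 members (Il7r, Ebf1, Pax5, Sox4, Bach2 and Cecr2), and it was highest for 23.2% of all genes tested. It was at least 2-fold above each other array for Il7r, Bach2, Cecr2 and Ebf1, a gap that only 65 genes showed (0.378%). The electro-acupuncture array was highest for the remaining 3, Dntt, Rag2 and Lef1, and for 21.8% of all genes. Beside that share, 3 of 9 is no result about these genes, and Lef1 spanned only 0.28 over the 4 arrays. Cisplatin was the lowest array for 7 of 9 members, all but Pax5 and Lef1, and for 21.2% of all genes. The full order control, astragalus, electro-acupuncture, cisplatin was shown by 5 members (Il7r, Sox4, Bach2, Cecr2 and Ebf1) and by 3.27% of all genes. After quantile normalization that order was left for 3 of them (Il7r, Bach2 and Cecr2), while the 6, 3 and 7 above were made up of the same genes. The neighbours in these orders can lie close, such as the 0.02 between astragalus and electro-acupuncture for Sox4, and without replicates no gap can be set against its error.

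Genes that act with the members were read from lists compiled by function. The lists were chosen with earlier results of these data known, so counts here and below describe them and carry no test. IL-7 signals through JAK kinases and STAT5 to keep progenitors alive. Of 18 listed genes of that pathway 12 were above the floor, and none was at least 2-fold different between cisplatin and control, with a median log2 difference of 0.12. Over all genes tested 0.965% were at least 2-fold lower and 2.01% higher. Those furthest apart were Pik3r1, a regulatory subunit of PI3-kinase, at 10.86 in control and 10.29 in cisplatin, and Myc, at 9.67 and 10.23. Bcl2l11, which encodes the death-promoting protein BIM, was at 7.12 and 6.68, and Mcl1, a survival protein, at 11.60 and 11.90. Stat5a was at 6.63 in control and 6.82 in cisplatin and Stat5b at 7.24 and 7.45. With so few of all genes at 2-fold, finding none in a list this short is no result about the pathway. The shared gamma chain Il2rg and the kinase Jak3 had no cluster of their own.

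Among 24 measured transcription factors of the B lineage, 5 were at least 2-fold lower in cisplatin and none at least 2-fold higher. Over all genes tested 0.965% were lower by that much, and the list median was -0.26. Spib, an ETS factor of B cells and plasmacytoid dendritic cells, was 2.93-fold lower, at 9.03 in control, 7.48 after cisplatin, 7.86 after astragalus and 7.42 after electro-acupuncture. Irf4, which acts with it on light chain genes, was 2.62-fold lower, from 7.48 to 6.09, and Myb, needed by progenitors of many lineages, 2.50-fold lower, from 11.66 to 10.34. Pou2af1, a coactivator of octamer factors in B cells, was 2.11-fold lower and, at 7.11, near its control level of 7.24 in electro-acupuncture. Ikzf3, an Ikaros relative of later B cells, was the remaining gene, at 8.12 in control and 7.06 in cisplatin. Tcf3, which encodes E proteins that act upstream of Ebf1, was at 7.38 and 7.08, and Foxo1, which drives Rag transcription, at 7.83 and 7.16. By any amount 15 of the 24 were lower in cisplatin and 9 higher, where 46.9% of all genes tested were lower. Spi1 was furthest up, at 7.10 in control and 7.63 in cisplatin, and Id2 was at 7.65 and 8.14.

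In cisplatin against control 0.965% of all genes tested were at least 2-fold lower and 2.01% higher. None of the 13 measured genes for joining the ends RAG leaves behind reached that size, like most genes, with a median of -0.17. Lig4, the ligase of that step, was at 6.71 in control and 6.01 in cisplatin. The Ku subunits lay on opposite sides, with Xrcc6 at 7.55 and 7.09 and Xrcc5 at 7.16 and 7.58. Polm, a polymerase related to terminal transferase, was at 6.22 and 5.81. Relatives of the members also stayed under 2-fold in this comparison, in 12 of 12 measured, with a median of 0.02. The Sox4 relative Sox12 was at 6.56 in control and 7.07 in cisplatin, and the Bach2 relative Bach1 at 8.79 and 9.06. Baz2b, another bromodomain gene, was at 9.98 and 9.42, Bptf at 9.50 and 9.10 and Baz2a at 9.54 and 9.17.

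Surface and signalling genes of the pre-B receptor were lower in part. Of 9 measured, 4 were at least 2-fold lower in cisplatin, against 0.965% of all genes tested, and the list median was -0.55. Cd79a and Cd79b, the signalling chains of the B cell receptor, were 2.57-fold and 2.50-fold lower, and Blnk, the adaptor below them, 2.55-fold. Vpreb3, a protein of the pre-B receptor assembly, was 2.14-fold lower, while Vpreb1 and Vpreb2, surrogate light chains of that receptor, were at -0.34 and -0.15 on the log2 scale. Igll1, the other surrogate light chain, was under the floor in mean and between 4.87 and 5.29 on the 4 arrays. Cd24a read 19.66 on every array, next to the ceiling of 19.93, so a difference could not show.

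**Figure D4:**
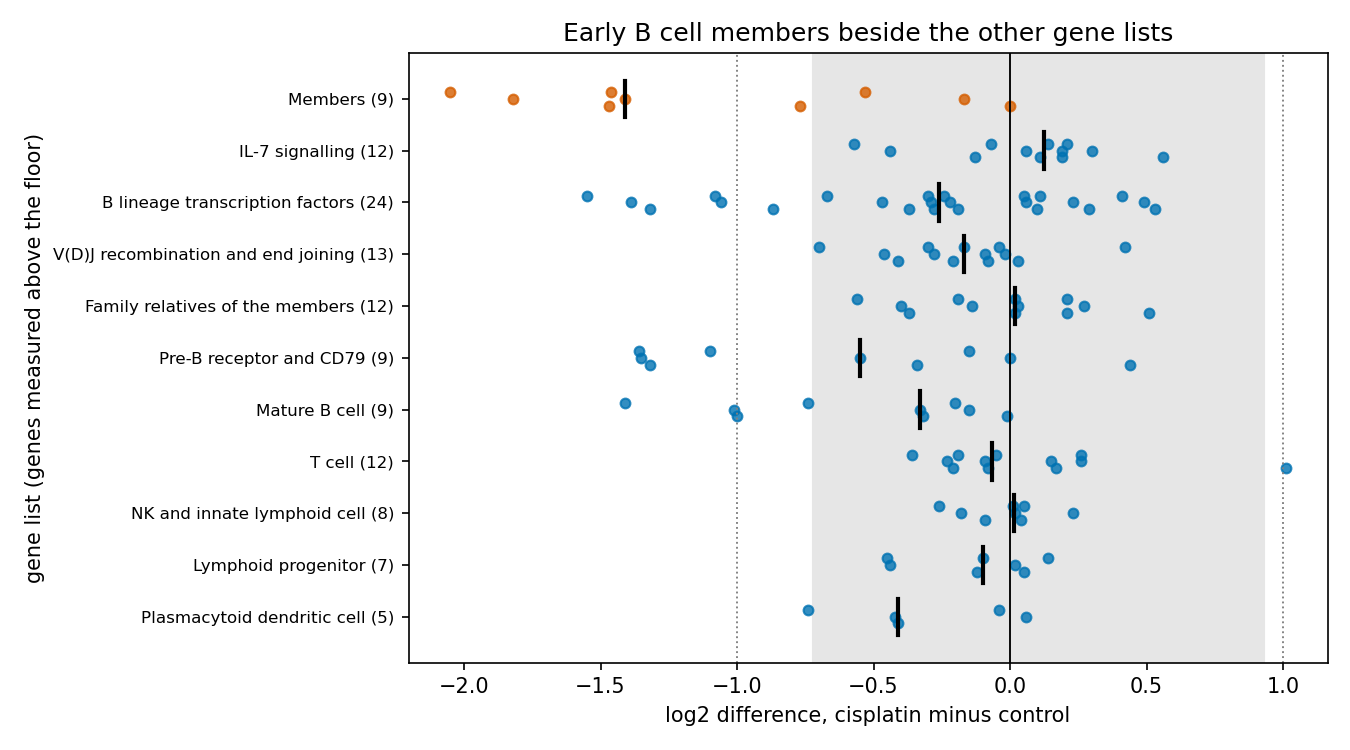
Log2 difference of cisplatin minus control (horizontal axis) for the 9 members and for the measured genes of 10 other lists (vertical axis, number measured in brackets), 1 point per gene with a bar at each median; the grey band holds the middle 95% of all genes tested. The members' median is -1.41, and the medians of the other lists lie between -0.55 and 0.12.

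Several members are also expressed in other cells, Il7r, Lef1, Sox4, Dntt and Rag2 in T cell precursors, Il7r in innate lymphoid cells and Pax5 and Bach2 in mature B cells. Mature B cell genes were below their control level in cisplatin in 9 of 9 measured, as were 46.9% of all genes tested. Of the 9, 3 were at least 2-fold lower, against 0.965% of all genes tested, and the list median was -0.33. After quantile normalization 2 of the 9 were at least 2-fold different. The smallest of the 9 differences were those of Cr2 at -0.01, Ciita at -0.15 and Fcer2a at -0.20. Cd72, a B cell co-receptor, was 2.66-fold lower, Blk, a kinase of the receptor, 2.01-fold, Tnfrsf13c, the BAFF receptor, 2.00-fold, and Ms4a1, which encodes CD20, 1.67-fold. Of 12 T cell genes measured none was at least 2-fold lower and 1, Lat, was 2.01-fold higher. Over all genes tested 0.965% were at least 2-fold lower and 2.01% higher. Lat is an adaptor that platelets and mast cells carry too. The median level of the T cell list was 5.705 in control, 5.765 after cisplatin, 5.64 after astragalus and 5.685 after electro-acupuncture, a list median near the floor on each array. Of its receptor chains, Cd3e was at 5.34 in control and 5.60 in cisplatin and Cd3g at 5.99 and 6.25. Cd3d, the chain well above the floor, was at 7.67 in control, 7.31 after cisplatin, 8.16 after astragalus and 7.62 after electro-acupuncture, so it was lower in cisplatin where Cd3e and Cd3g were higher. The 8 natural killer and innate lymphoid genes had median levels from 5.315 to 5.545 and a median difference of 0.01 between cisplatin and control. Furthest apart were Klrb1c, a natural killer cell receptor, at 5.59 in control and 5.33 in cisplatin, and Prf1, which encodes perforin, at 5.48 and 5.71. Klrd1, another receptor of these cells, was at 6.88 and 6.70, and Gzma, a granzyme, at 6.13 and 6.04. None of the 7 lymphoid progenitor genes was 2-fold different, and nor were most of all genes tested. The list median was -0.10, Ly6d and Hhex being furthest at -0.45 and -0.44, with Hes1 at 0.14 and Notch1 at -0.12. The 5 plasmacytoid dendritic cell genes had a median of -0.41, with Siglech at 7.26 in control and 6.52 in cisplatin, Cox6a2 at 6.74 and 6.32, Ccr9 at 6.02 and 5.61 and Ptprs at 5.65 and 5.71. The part of each of these cell types in the members' levels was not tested.

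Genes with profiles most like the members were sought among 11227 protein-coding genes, by the root mean square distance between profiles over the 4 arrays, each centred on its own mean. The search was made for the 3 members with the widest range. For Il7r the nearest were Spib (distance 0.18 on the log2 scale), Niban3 (0.22) and Ifi209, of the interferon-inducible p200 family (0.23). For Cecr2 they were Spib (0.13), Glcci1 (0.16) and Niban3 (0.16). For Sox4 they were Slamf7, a surface receptor of lymphocytes (0.04), Cd79a (0.06) and Akap12, a kinase anchor protein (0.09). Slamf7 was at 8.14 in control, 6.77 after cisplatin, 7.21 after astragalus and 7.16 after electro-acupuncture, the shape of the Sox4 values over the same 4 arrays. A likeness over 4 arrays is a description of these arrays only.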

How the data were processed

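Per the labels' protocols, 6 ug of total RNA went into biotin-labelled cRNA. The deposited values are log2 levels, 1 per transcript cluster and array, made with Affymetrix Expression Console per the submitters' processing notes; neither its version nor the summary method is given in the sources used here. That they are log2 was inferred from their range, 2.70 to a shared ceiling of 19.93. Of 65956 clusters, 31258 carried 1 gene symbol after updating through RefSeq (GRCm38.p6), 1492 carried several and were not named, and 33206 are unnamed here. A gene took its highest-mean cluster and was kept at a mean of 5.235, the median of all clusters. The 5th to 95th percentile range was 6.80 to 6.83 in 3 arrays and 7.20 in astragalus.

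Each of 6 comparisons is a difference of log2 values of 2 arrays, counted at an absolute difference of 1 or more. All members were named whatever their values, with the 4 genes of each other list furthest apart between cisplatin and control. Stat5a, Stat5b, Ikzf3, Tcf3, Foxo1, Spi1, Id2, Bach1, Vpreb1, Vpreb2, Igll1, Cd24a, Cr2, Ciita and Fcer2a were added after their values were seen. Members and lists were chosen with earlier results of these data known, and the motifs after the promoter sequences were seen. Alternatives were quantile normalization, a lowess trend removed (span 0.3), other filters and the mean of a gene's clusters. The 2-fold count, the lowess step and quantile normalization were tested on simulated data with little noise (Python 3.11.15, pandas 2.3.3, statsmodels 0.14.6). The other steps were not tested in that way.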

Additional observations from a re-analysis of the deposited data

How the results depend on the processing

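The count of members at least 2-fold different stayed within 1.5 times its main value in all 6 comparisons under quantile normalization, the removed lowess trend and the mean of a gene's clusters, the last of which leaves the members as they are because each has 1 cluster. Of 54 member differences, 52 kept their side of 2-fold after quantile normalization and 53 with the lowess trend removed; the exceptions are the Sox4 values given above. The order of the 4 arrays was recomputed under quantile normalization as a choice made after seeing the data. The count of all genes at least 2-fold different between astragalus and electro-acupuncture was 263, but 171 under a filter set at the 75th percentile, which tests fewer genes. For astragalus the higher genes' share of all 2-fold genes moved with the scaling: against cisplatin it was 51.0% as deposited, 33.7% after quantile normalization and 22.5% with the lowess trend removed; against control 69.6%, 58.9% and 49.4%; and against electro-acupuncture 43.0%, 26.9% and 22.4%, and 59.6% under the 75th percentile filter. That filter moved the median of all genes in these comparisons from 0.06, 0.05 and 0.06 to 0.18, 0.19 and 0.18, and no other alternative moved one by over 0.1 except removal of the filter in astragalus against electro-acupuncture, to -0.05. No paired analysis was possible because each group has 1 array.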

Other observations

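The cluster that carries both Rag1 and Iftap had log2 levels of 6.83 in control, 6.82 after cisplatin, 6.87 after astragalus and 6.91 after electro-acupuncture. They span 0.09 and cannot be assigned to either gene. The Rag1 promoter window held 4 motif matches. TGTGGT lay at 81 to 76 and at 67 to 62 bases before the start, CAGGTG at 135 to 130 and TGGGAA at 52 to 47. Of all windows 14.0%, 17.2% and 21.6% hold these motifs. How many windows hold as many matches was not counted, and the motifs were chosen with the sequences known, so the number carries no meaning for Rag1.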
